A study of Homo sapiens with 26 samples.

Results

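The 3 classical cadherin genes CDH1, CDH2 and CDH3 and 7 genes that accompany or drive the epithelial-mesenchymal transition (VIM, ZEB1, ZEB2, SNAI1, SNAI2, TWIST1 and FN1) were followed through 6 comparisons in esophageal squamous cell carcinoma (ESCC) cell lines. They were taken by gene symbol as a set known from this transition, but with earlier results of these data known. All 10 were found among the 26485 symbols of every deposited table. RNA-seq of 26 libraries in 11 groups was deposited as 5 tables, each normalised on its own.

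The libraries came from 3 established human ESCC lines, KYSE180, TE6 and KYSE150. KYSE180 cells were transfected with a control siRNA (siCont, 3 libraries) or an siRNA against BRDT (siBRDT, 3 libraries), and in a separate experiment with siCont or an siRNA against TP63 (siTP63, 2 libraries each). TE6 cells received siCont, siBRDT or siTP63 (2 libraries each), and KYSE150 cells received siCont or siTP63 (2 libraries each). All knockdown cells were collected after 48 h. KYSE150 cells with plasmid overexpression of BRDT (BRDT-OE, 3 libraries), introduced by electroporation per the study's methods, were set beside KYSE150 control cells (3 libraries). No source states that replicates came from separate cultures, so the p-values measure the spread between these libraries, which may be technical. BRDT is a BET bromodomain protein gene that is normally expressed in germ cells, and TP63 encodes the squamous transcription factor p63.

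Classical cadherins are single-pass membrane proteins that bind their like on the neighbouring cell and hold the actin cytoskeleton to the junction through catenins. In squamous epithelium E-cadherin (CDH1) is present through the layers and P-cadherin (CDH3) mainly in the basal layer, while N-cadherin (CDH2) belongs to mesenchymal and neural cells. During the epithelial-mesenchymal transition the zinc finger proteins SNAI1, SNAI2, ZEB1 and ZEB2 repress CDH1, the basic helix-loop-helix protein TWIST1 acts with them, and the intermediate filament gene VIM and the matrix gene FN1 rise. SNAI2 is also known as a gene of basal keratinocytes.

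The siRNAs named in the study's supplement are shown because they define the knockdowns. The sources used here do not state which of them, or which mixture, went into the sequenced libraries. They are written 5′ to 3′ as deposited in RNA letters:
siRNA against TP63, #8: cgacagucuuguacaauuu
siRNA against TP63, #5: caucaugucuggacuauuu
siRNA against BRDT, #18: gagauaaacuugggcgagu
siRNA against BRDT, #4: guagagagaacacuaauga
siRNA against BRDT, #3: gaaaauggauaaccaagaa
siRNA against BRDT, #2: caaaucaacuucaguaucu
Non-targeting control, #5: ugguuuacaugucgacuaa
Each of the BRDT and TP63 sequences matched, over its full 19 bases, GENCODE transcripts of its own target gene and of no other gene, and none of them matched any of the 10 genes. The non-targeting sequence had no full match. On hg38 the BRDT matches lay on the plus strand at chr1:91962840-91962858 (#2), chr1:91978170-91978188 (#3), chr1:91979663-91979681 (#4) and chr1:91981008-91981026 (#18). The TP63 matches lay on the plus strand at chr3:189890812-189890830 (#5) and chr3:189867849-189867867 (#8). All 6 fell in annotated coding exons. TP63 #5 matched 5 of 14 annotated TP63 transcripts and TP63 #8 matched 12 of 14.

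The targeted genes followed the labels in every knockdown group and in the overexpression group. BRDT in KYSE180 measured 1017, 1043 and 1136 (normalised value, that is gene count divided by the library's size factor) in siCont and 132, 147 and 198 in siBRDT. In TE6 BRDT measured 241 and 242 in siCont against 55.0 and 46.6 in siBRDT. TP63 measured 2573 and 3035 against 794 and 925 in KYSE180, 2596 and 2785 against 133 and 112 in TE6, and 695 and 729 against 170 and 114 in KYSE150, each time siCont against siTP63. BRDT measured 6.58 to 16.0 in KYSE150 control cells and 15872 to 17542 in BRDT-OE. TP63 also stood lower after siBRDT, at 5924 to 7223 against 9400 to 10366 in KYSE180 and at 1282 and 1147 in TE6.

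Library totals ranged from 7582089 to 19372441 reads, and a count of 0 in a library allows up to 3 reads, or 0.155 to 0.396 RPM (reads after division by library depth), for counting error only. The 7 squamous markers KRT5, KRT14, KRT17, KRT6A, TP63, DSG3 and SFN were present in every library and summed to 764 to 8883 RPM. The 14 markers of other cell types were not uniformly absent. Of the 4 leukocyte markers, PTPRC, CD3E and CD14 had at most 4, 10 and 13 reads in a library, while CD68 had 47 to 1812. Of the 4 endothelial markers, PECAM1 and KDR had at most 8 and 4 reads, VWF 4 to 173 and CDH5 0 to 174. Of the 6 fibroblast markers, DCN and PDGFRB had at most 8 and 16 reads, LUM 0 to 43, COL3A1 0 to 101, COL1A2 0 to 162 and COL1A1 38 to 1164. The libraries come from cultures of ESCC lines, so reads of these markers do not by themselves show that other cell types were present. The squamous sum holds TP63, the target of siTP63, which also stood lower after siBRDT. In such bulk libraries fewer cells of a type and less RNA per cell cannot be told apart.

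Per GENCODE 44 on hg38, CDH3 (chr16:68636189-68727468) and CDH1 (chr16:68737292-68835537) are neighbours on the plus strand of chromosome 16. CDH2 lies at chr18:27932879-28177946 and FN1 at chr2:215360440-215436073, both on the minus strand. SNAI1 is at chr20:49982980-49988886 (plus), SNAI2 at chr8:48917598-48921740 (minus), TWIST1 at chr7:19020991-19117636 (minus), VIM at chr10:17228241-17237593 (plus), ZEB1 at chr10:31318495-31529814 (plus) and ZEB2 at chr2:144364364-144521057 (minus). Exons of opposite-strand genes overlap exons of all members but SNAI1 and FN1, and the library kit does not mark strand. The counts of the other 8 may therefore hold reads of those partners or lack reads from the shared stretches. Which of these applies is not known, since the annotation and strand setting of the counting are not given.

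In control libraries the 3 lines were rich in CDH1 and CDH3 and differed most in CDH2, VIM and FN1. The levels below are RPKM, that is RPM divided by the length of the longest transcript in kilobases, which allow a view across genes. They rest on the reads of each library, so the size factors of the separately normalised tables do not enter. The levels are given without a test. CDH3 stood above CDH1 in each of the 12 control libraries. CDH1 measured 67.8, 70.1 and 74.1 RPKM in the KYSE180 controls of the BRDT experiment, 24.7 and 26.6 in those of the TP63 experiment, 16.7 and 17.9 in TE6, 36.8 and 52.0 in the KYSE150 siCont libraries and 77.7 to 97.0 in the KYSE150 controls of the overexpression experiment. The same line thus gave different CDH1 levels in different experiments, and these did not overlap in either KYSE180 or KYSE150. CDH2 measured 6.35 to 6.57 RPKM and 1.28 and 1.49 in the KYSE180 control sets, 0.716 and 0.954 in TE6, and was at 0 to 2 reads in the KYSE150 controls.

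VIM was at 10.0 and 12.3 RPKM in TE6 siCont and between 0.0465 and 1.87 in all other control libraries, which did not overlap TE6. FN1 went the other way: it measured 5.13 to 15.6 RPKM in KYSE150 controls, 0.279 and 0.342 in TE6, and 0.0991 to 0.983 in KYSE180. SNAI2 was the most abundant of the 5 transcription factor genes in the KYSE180 and KYSE150 control libraries, at 4.18 to 18.2 RPKM, with TWIST1 at 2.89 to 6.11. In TE6 the order was turned, with TWIST1 at 7.43 and 8.01 and SNAI2 at 6.32 and 6.53 RPKM. SNAI1 stayed at or under 1.41 RPKM, and ZEB1 and ZEB2 at or under 0.378 and 0.0372 RPKM. ZEB2 had no read in any KYSE150 library, so that its level there was not detectable at this depth.

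**Figure D1:**
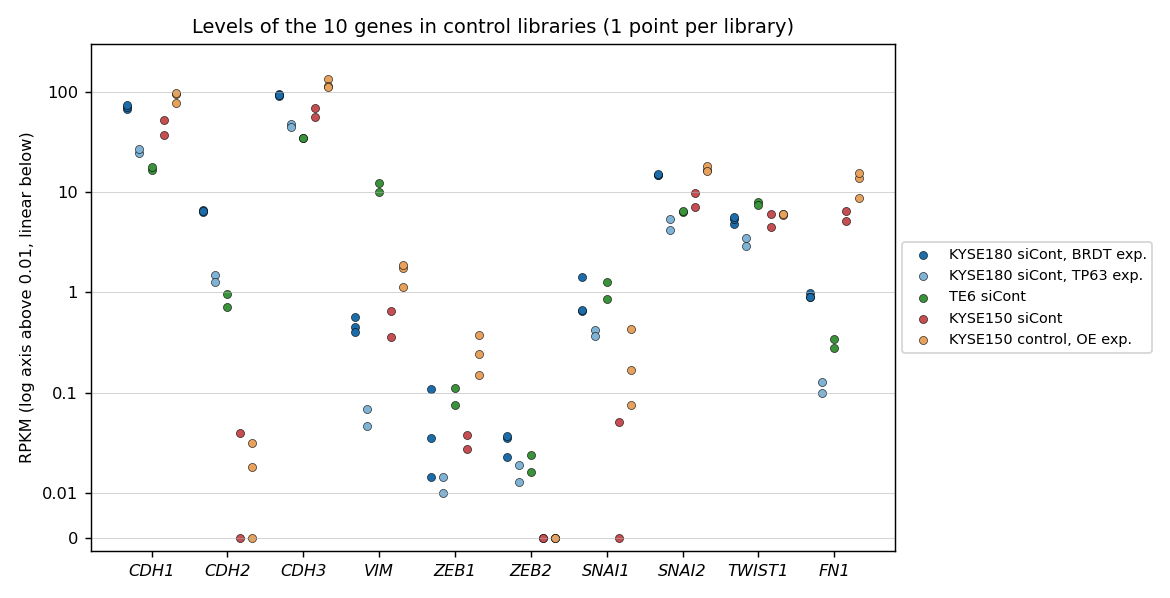
Level of each gene in every control library, in RPKM on an axis that is logarithmic above 0.01 and linear below, with 1 point per library and a colour per control group. CDH1 and CDH3 lie highest, VIM is high in TE6 alone among the control groups, FN1 is highest in KYSE150, and CDH2 falls to 0 to 2 reads in KYSE150.

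Each comparison of treated with control libraries was fitted with limma on log2(value + 1), a scale that understates changes of low genes. A gene was tested when its mean value was at least 10, and it was called when its p-value, adjusted by Benjamini and Hochberg's method, was under 0.05 while the log2 fold change reached 0.5 in either direction. ZEB2 was tested in none of the comparisons and ZEB1 only in the overexpression experiment. CDH2 and SNAI1 were not tested in KYSE150 and VIM not in the TP63 experiment of KYSE180.

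**Figure D2:**
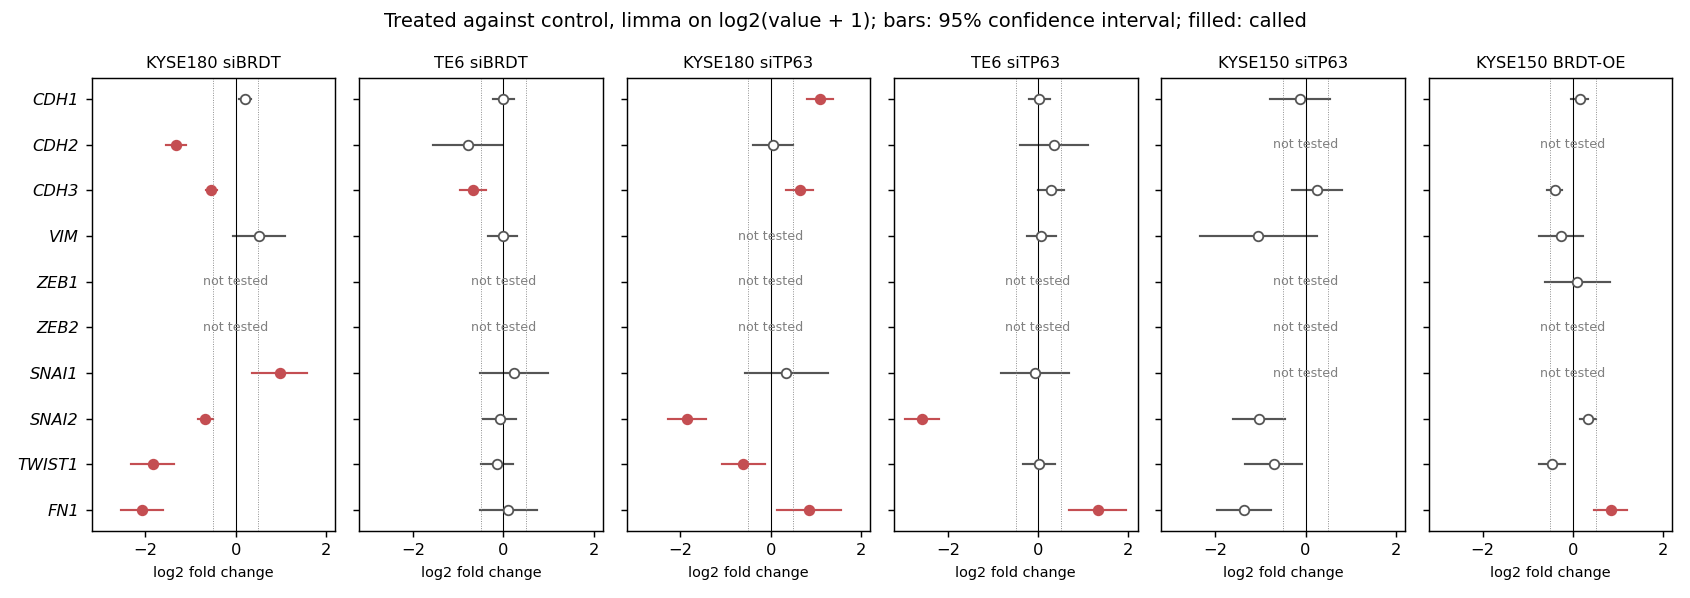
log2 fold change (treated minus control, limma on log2(value + 1)) of the 10 genes in the 6 comparisons. Points are estimates, bars their 95% confidence intervals, filled points are called genes and dotted lines mark 0.5. SNAI2 lies left of 0 in all knockdown panels, although its interval spans 0 in TE6 siBRDT, while FN1 lies left of 0 in KYSE180 siBRDT and KYSE150 siTP63 and right of it in KYSE180 siTP63, TE6 siTP63 and KYSE150 BRDT-OE.

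After BRDT knockdown in KYSE180 the matrix gene FN1, the transcription factor genes TWIST1 and SNAI2 and the cadherins CDH2 and CDH3 fell, SNAI1 rose and CDH1 did not fall. These were 5 genes called lower and 1 higher of the 8 tested, in all 6, beside 30.3% of all 13589 genes tested. The groups did not overlap for any of the 8, beside 62.8% of all genes. The median log2 fold change of the 8 was -0.61, against -0.0052 over all genes.

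N-cadherin (CDH2) measured 284, 295 and 287 in siCont and 106, 123 and 117 in siBRDT. Its log2 fold change was -1.32 (SE 0.10, adjusted p = 5.2e-08), which is 2.50-fold lower. P-cadherin (CDH3) went from 4522, 4682 and 4526 to 3107, 3112 and 3206, a log2 fold change of -0.54 (SE 0.057, adjusted p = 1.3e-06). E-cadherin (CDH1), by contrast, was higher in every siBRDT library, at 4076, 4343 and 4547 against 3633, 3769 and 3921. With a log2 fold change of 0.19 (SE 0.062, adjusted p = 0.015) it stayed under the fold-change limit.

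Among the transcription factors, TWIST1 measured 88.2, 99.0 and 101 in siCont against 18.1, 37.0 and 26.1 in siBRDT, so that the highest siBRDT library was still far under the lowest control. Its log2 fold change was -1.84 (SE 0.22, adjusted p = 4.7e-06), or 3.59-fold lower. SNAI2 went from 472, 469 and 467 to 296, 281 and 305 (log2 fold change -0.67, SE 0.078, adjusted p = 3.9e-06). SNAI1, a paralog of SNAI2 and a repressor of CDH1, moved the opposite way. It measured 12.3, 12.9 and 26.5 in siCont and 30.9, 30.1 and 37.4 in siBRDT, a log2 fold change of 0.97 (SE 0.29, adjusted p = 0.0090) that rests on 10 to 43 reads per library. ZEB1 had 1 to 10 reads and ZEB2 0 to 5, too few to compare.

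FN1, which encodes fibronectin, had the largest fold change of the 8: it measured 100, 91.5 and 91.2 in siCont and 29.8, 15.1 and 22.6 in siBRDT. The log2 fold change was -2.07 (SE 0.22, adjusted p = 1.4e-06), a 4.20-fold fall on 13 to 28 reads per siBRDT library. VIM, at 12.1 to 16.7 in siCont and 17.4 to 23.4 in siBRDT, did not pass (log2 fold change 0.52, 95% confidence interval -0.05 to 1.09, adjusted p = 0.11). The 6 fibroblast markers summed to 94.6 to 108 RPM in siCont and 104 to 120 in siBRDT, with none of them at 0 in every library of a group. The 7 squamous markers summed to 8220 to 8883 RPM in siCont and 5081 to 5268 in siBRDT, the leukocyte markers, mainly CD68, to 47.8 to 53.8 and 21.2 to 24.9, and the endothelial markers to 3.12 to 3.74 and 2.75 to 3.24. The part of these shifts in the results was not tested. The 6 calls held in all 13 alternative settings tried, including the omission of each library.

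**Figure D3:**
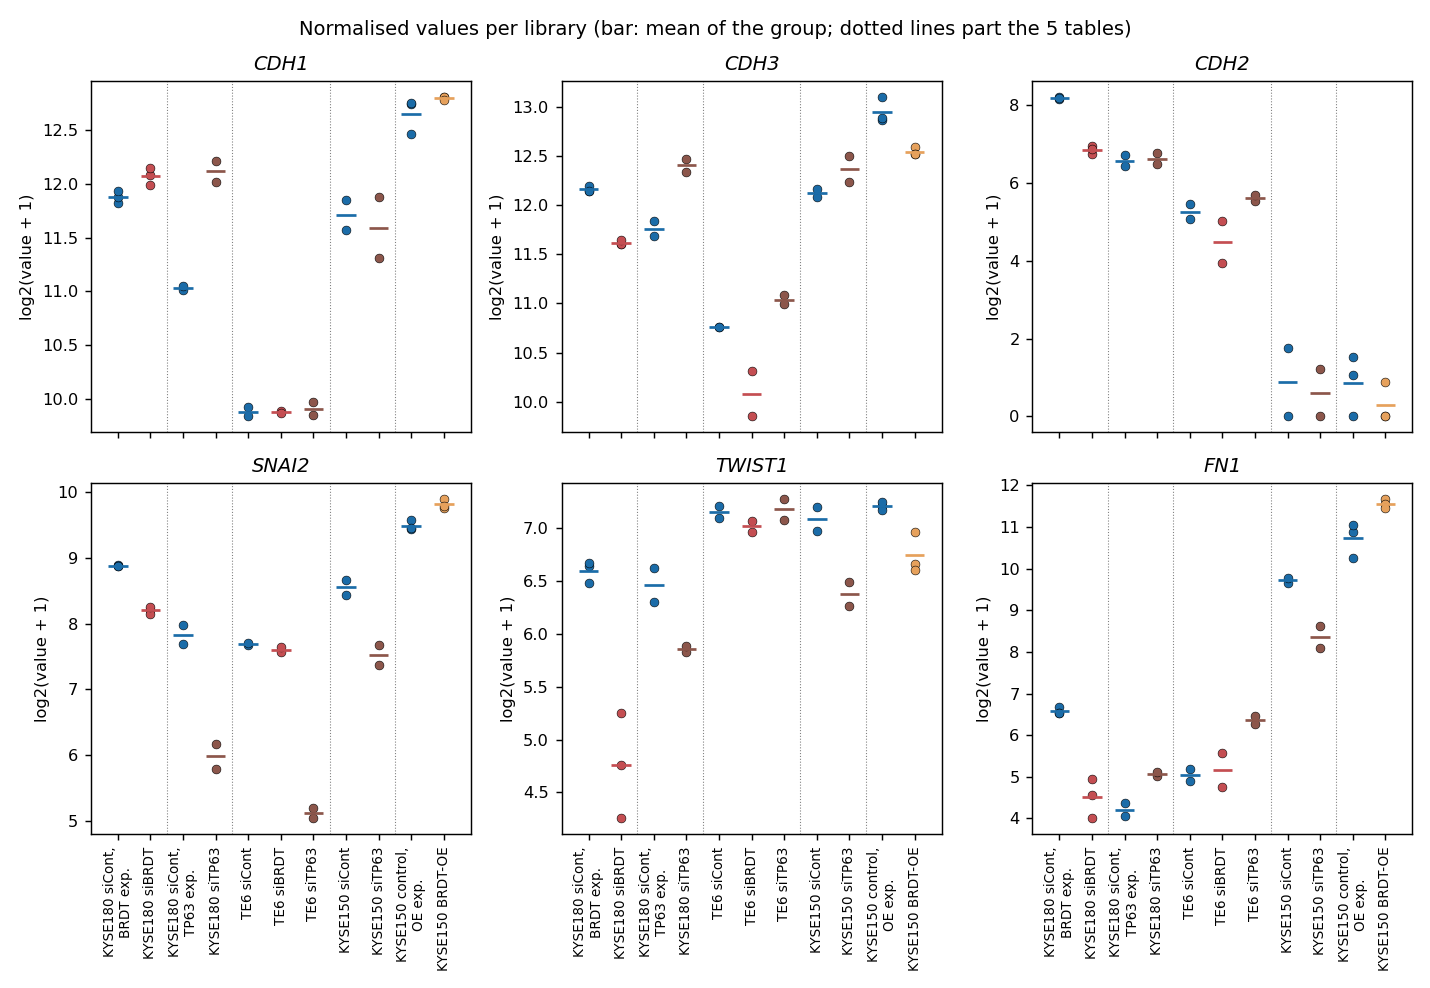
Value of 6 of the genes in every library as log2(value + 1), 1 point per library with the group mean as a bar, control groups in blue, siBRDT in red, siTP63 in brown and BRDT-OE in orange. In KYSE180 the siBRDT points of CDH2, CDH3, SNAI2, TWIST1 and FN1 lie under all their controls, and the siTP63 points of SNAI2 lie under the controls in all 3 lines.

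In TE6, CDH3 alone was called after siBRDT, that is 1 of the 8 genes tested, beside 33.7% of all 13333 genes. It measured 1731 and 1728 in siCont and 921 and 1272 in siBRDT, with a log2 fold change of -0.68 (SE 0.13, adjusted p = 0.0013). Both treated libraries were lower, yet they differed from each other more than the controls did. Without siBRDT replicate 1 the log2 fold change was -0.44, under the fold-change limit. The median over the 8 was -0.044, against -0.039 over all genes, and the groups did not overlap for 4 of the 8, beside 71.9% of all genes.

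CDH2 in TE6 was at 32.5 and 43.1 in siCont and 31.3 and 14.3 in siBRDT, on 12 to 50 reads. Its log2 fold change of -0.79 (SE 0.35) did not pass (adjusted p = 0.084), and 1 library decided it: without siBRDT replicate 1 it was -1.33 with an adjusted p of 7.7e-04. CDH1 measured 912 and 966 against 946 and 933, with a 95% confidence interval of the log2 fold change from -0.23 to 0.23. VIM, which TE6 alone expressed at a high level, measured 371 and 300 against 313 and 352 (95% interval -0.33 to 0.32). The log2 fold changes of SNAI1, SNAI2, TWIST1 and FN1 ranged from -0.14 to 0.24 and none of them passed. TWIST1, at -0.14, was called lower (-0.60, adjusted p = 0.0074) in 1 of the 14 alternatives, the removal of each library's length and GC trend. The squamous markers summed to 7174 to 7442 RPM in siCont and 4392 to 4661 in siBRDT, the leukocyte markers, mainly CD68, to 35.6 to 36.8 and 19.7, the fibroblast markers to 27.9 to 31.6 and 24.5 to 28.7 and the endothelial markers to 4.52 to 5.90 and 3.69 to 6.88. Their part in the results was not tested.

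The KYSE180 and TE6 responses to siBRDT were compared directly as a difference of the log2 fold changes, called at an adjusted p under 0.05 without a fold-change limit. FN1 (difference -2.19, SE 0.41, adjusted p = 9.6e-04), TWIST1 (-1.71, SE 0.32, adjusted p = 0.0010) and SNAI2 (-0.59, SE 0.14, adjusted p = 0.0048) fell more in KYSE180. These were 3 of 8 tested, beside 37.2% of all 13761 genes. For CDH3 the difference was 0.13 (95% interval -0.19 to 0.45) and for CDH2 -0.53 (-1.26 to 0.19), and neither passed. Without TE6 siBRDT replicate 2, CDH2, CDH3 and the 3 genes above passed, 5 in all.

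TP63 knockdown lowered SNAI2 in KYSE180 and TE6. On the normalised values CDH1 and CDH3, but not CDH2, rose in KYSE180. In KYSE180, CDH1, CDH3 and FN1 were called higher and SNAI2 and TWIST1 lower, 5 of 7 tested, beside 49.3% of all 13924 genes. The median of the 7 was 0.35, against 6.4e-04 over all genes, and the groups did not overlap for 6 of the 7, beside 80.2%. Rescaling to equal upper quartiles shifted the median gene of this comparison by 0.19 on the log2 scale, so values near that size are not read as a direction. With that rescaling CDH1, CDH3 and FN1 were called higher and SNAI2 lower, 3 against 1.

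E-cadherin (CDH1) measured 2059 and 2121 in KYSE180 siCont and 4144 and 4765 in siTP63. The log2 fold change was 1.09 (SE 0.14, adjusted p = 5.0e-07), a 2.13-fold rise. CDH3 went from 3652 and 3295 to 5184 and 5661 (log2 fold change 0.64, SE 0.15, adjusted p = 5.5e-04). CDH2 did not follow: it was at 104 and 85.2 in siCont and 89.0 and 107 in siTP63, groups that overlap, with a 95% interval from -0.38 to 0.49.

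SNAI2 measured 204 and 251 in siCont and 54.5 and 70.7 in siTP63 of KYSE180, a 3.61-fold fall (log2 fold change -1.85, SE 0.20, adjusted p = 3.4e-08). TWIST1 was at 97.5 and 78.0 against 56.0 and 58.0 (log2 fold change -0.61, SE 0.23, adjusted p = 0.027). In RPM the TWIST1 groups overlapped, at 5.63 and 4.71 in siCont against 4.64 and 5.05 in siTP63. FN1 was at 15.7 and 19.5 against 31.4 and 33.4, on 10 to 42 reads (log2 fold change 0.85, SE 0.35, adjusted p = 0.037). The calls of TWIST1 and FN1 were fragile: over the 11 alternatives the adjusted p ranged from 0.0051 to 0.42 for TWIST1, called in 4, and from 0.0078 to 0.24 for FN1, called in 5. Without siCont replicate 1, siTP63 replicate 1 or siTP63 replicate 2 neither was called (log2 fold changes -0.45, -0.58 and -0.63 for TWIST1 and 0.70, 0.89 and 0.81 for FN1). SNAI1, at 12.6 and 10.3 against 16.1 and 13.5, did not pass. The fibroblast markers summed to 36.1 to 39.7 RPM in siCont and 68.7 to 80.0 in siTP63, with DCN at 0 in siTP63, and the endothelial markers to 1.43 to 2.09 and 11.3 to 12.1 RPM, with KDR at 0 in siTP63. The squamous markers summed to 8391 to 8799 and 4930 to 5058 RPM and the leukocyte markers to 29.0 to 31.7 and 13.2 to 15.1. RPM and the normalised values behind the fold changes are scaled differently here. In RPM, CDH1 was at 119 and 128 in siCont and 343 and 415 in siTP63, a larger rise than in normalised values. The marker sums are thus not on the scale of the fold changes. The part of the markers in these results was not tested.

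TE6 responded to siTP63 in 2 of the 8 genes tested, beside 38.9% of all 13333 genes. SNAI2 measured 202 and 208 in siCont and 31.8 and 35.5 in siTP63. Its log2 fold change was -2.57 (SE 0.17, adjusted p = 2.8e-07), or 5.94-fold lower. FN1 went from 29.0 and 35.3 to 75.6 and 87.3 (log2 fold change 1.32, SE 0.30, adjusted p = 0.0026). Both calls held in all 14 alternatives. The squamous markers, TP63 among them, summed to 7174 to 7442 RPM in siCont and 1431 to 1553 in siTP63. The leukocyte markers, mainly CD68, summed to 35.6 to 36.8 and 6.20 to 9.001 RPM, with PTPRC and CD3E at 0 in both groups. For the endothelial markers the sums were 4.52 to 5.90 and 7.90 to 9.76, with CDH5 at 0 in both, and for the fibroblast markers 27.9 to 31.6 and 27.3 to 31.3, with DCN at 0 in both. Their part in these values was not tested.

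The cadherins of TE6 did not pass after siTP63. CDH1 measured 912 and 966 against 1001 and 919, with a 95% interval of the log2 fold change from -0.20 to 0.26. CDH3 measured 1731 and 1728 against 2038 and 2166 (log2 fold change 0.28, SE 0.13, adjusted p = 0.096), and CDH2 32.5 and 43.1 against 45.8 and 50.3 (0.35, SE 0.35). VIM, SNAI1 and TWIST1 lay between -0.07 and 0.07 on the log2 scale. The median over the 8 was 0.048, against -0.011 over all genes, and the groups did not overlap for 4 of the 8, beside 80.5%. The TE6 siBRDT and siTP63 comparisons share their control libraries. Side by side, siBRDT and siTP63 gave log2 fold changes of -0.08 and -2.57 for SNAI2, 0.12 and 1.32 for FN1, and -0.68 and 0.28 for CDH3.

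In KYSE150 none of the 6 genes tested was called after siTP63 by limma, and neither was any of the 12335 genes (0%). At an unadjusted p under 0.05 limma gave 3 of the 6 genes and 17.8% of all genes. edgeR called 0 of the 6 and 0 of all genes, and DESeq2 called 1 and 461. FN1 measured 808 and 881 in siCont and 392 and 273 in siTP63 (log2 fold change -1.36, SE 0.24, unadjusted p = 0.0016, adjusted p = 0.11). Over the 12 alternatives its adjusted p ranged from 5.0e-11, under a pairing of libraries chosen after the data were seen, to 0.14. It was called in 5 of them, among them those without siCont replicate 1 (log2 fold change -1.43) and without siTP63 replicate 1 (-1.63).

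SNAI2 in KYSE150 was at 346 and 406 in siCont against 204 and 165 in siTP63 (log2 fold change -1.03, SE 0.23, adjusted p = 0.14), and TWIST1 at 125 and 146 against 88.9 and 75.9 (-0.71, SE 0.26, adjusted p = 0.24). For both genes the treated libraries lay under the controls, without a call. CDH1 overlapped between groups, at 3044 and 3704 against 3770 and 2535. CDH3 measured 4321 and 4578 against 5801 and 4806 (log2 fold change 0.25, 95% interval -0.30 to 0.80), and VIM 16.3 and 25.9 against 6.65 and 13.3 on 8 to 22 reads (-1.05, adjusted p = 0.36). The groups did not overlap for 5 of the 6 genes, beside 48.9% of all genes. The median over the 6 was -0.87, against -0.0077 over all genes. The endothelial markers summed to 0.796 to 1.73 RPM in siCont and 5.52 to 11.4 in siTP63, largely through CDH5, itself a cadherin, with 13 and 6 reads in siCont and 174 and 62 in siTP63. The squamous markers summed to 1837 to 2259 RPM in siCont and 764 to 807 in siTP63, the leukocyte markers to 30.4 to 30.7 and 28.7 to 33.1, and the fibroblast markers to 3.80 to 5.09 and 5.60 to 8.61. Their part in these values was not tested.

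The siTP63 responses of the 3 lines were compared as differences of log2 fold changes. Between KYSE180 and TE6, CDH1 rose more in KYSE180 (difference 1.06, SE 0.14, adjusted p = 3.5e-05), which held in all 15 alternatives. CDH3 (0.36, SE 0.14, adjusted p = 0.035) and SNAI2 (0.72, SE 0.27, adjusted p = 0.037) also passed, in sum 3 of 8 tested, beside 55.5% of all 13926 genes. Each of these other two was called in 8 of the 15 alternatives, with adjusted p up to 0.14 and 0.15.

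FN1 differed between KYSE150 and the other lines. Its log2 fold change in KYSE180 exceeded that in KYSE150 by 2.21 (SE 0.34, adjusted p = 0.036), 1 of 6 genes tested, beside 2.05% of all 13689 genes. Over 15 alternatives the adjusted p ranged from 2.8e-04 to 0.25, called in 6. In TE6 it exceeded that in KYSE150 by 2.68 (SE 0.31, adjusted p = 0.017), and SNAI2 fell more in TE6 than in KYSE150 (-1.54, SE 0.26, adjusted p = 0.037). These were 2 of 8 tested, beside 2.37% of all 13435 genes, with adjusted p from 5.4e-09 to 0.21 and from 0.0014 to 0.29 over 15 alternatives, called in 10 and 7.

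BRDT overexpression in KYSE150 raised FN1, 1 of 7 genes called, beside 26.5% of all 12765 genes. FN1 measured 1880, 2121 and 1219 in control cells and 3282, 2988 and 2822 in BRDT-OE. Every BRDT-OE library was above every control, and the log2 fold change was 0.84 (SE 0.17, adjusted p = 0.0020), a 1.78-fold rise called in all 13 alternatives.

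CDH3, TWIST1 and SNAI2 had adjusted p under 0.05 in BRDT-OE but stayed under the fold-change limit. CDH3 measured 8776, 7464 and 7581 in control cells against 6148, 5890 and 5878 (log2 fold change -0.41, SE 0.078, adjusted p = 0.0016). TWIST1 measured 147, 143 and 151 against 101, 96.4 and 124 (-0.47, SE 0.13, adjusted p = 0.013), and passed the limit without BRDT-OE replicate 3 (-0.58, adjusted p = 0.0089). SNAI2 measured 692, 762 and 698 against 869, 955 and 884 (0.33, SE 0.078, adjusted p = 0.0051). After rescaling to equal upper quartiles, which shifted the median gene by -0.098, CDH3 and TWIST1 passed the limit as well, 1 higher and 2 lower. In all 3 genes the groups did not overlap, as for 5 of the 7 genes and 60.2% of all genes.

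CDH1 measured 6852, 6902 and 5672 in control cells and 7185, 7184 and 7055 in BRDT-OE (log2 fold change 0.15, 95% interval -0.04 to 0.33, adjusted p = 0.17). VIM was at 44.3 to 75.6 against 44.7 to 59.1, and ZEB1 at 14.3 to 34.9 against 21.1 to 29.5, with groups that overlap. CDH2 had 0 to 2 reads in each of these 6 libraries and SNAI1 1 to 12, so a change of either was not detectable at this depth. The median over the 7 was 0.097, against 0.017 over all genes. The fibroblast markers summed to 9.38 to 10.4 RPM in control cells and 4.51 to 5.47 in BRDT-OE, with DCN at 0 in both groups. The leukocyte markers, mainly CD68, summed to 96.3 to 111 and 78.1 to 82.1 RPM, the squamous markers to 1219 to 1460 and 1389 to 1500, and the endothelial markers to 0.867 to 1.58 and 0.637 to 1.65. Their part in the FN1 values was not tested.

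The balance of P-cadherin to E-cadherin was read within each library as CDH3 RPKM over CDH1 RPKM, a ratio that does not depend on library scaling. It was lower after BRDT knockdown in KYSE180 and TE6 and also in BRDT-OE cells. In KYSE180 it was 1.34, 1.34 and 1.25 in siCont and 0.824, 0.774 and 0.762 in siBRDT, so that CDH1 passed CDH3 in each siBRDT library. In TE6 it was 2.05 and 1.93 in siCont and 1.05 and 1.47 in siBRDT. In KYSE150 it was 1.38, 1.17 and 1.44 in control cells and 0.925, 0.886 and 0.900 in BRDT-OE.

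After siTP63 the ratio was lower in KYSE180, at 1.92 and 1.68 against 1.35 and 1.28, but higher in TE6, at 2.05 and 1.93 against 2.20 and 2.55, and in KYSE150, at 1.53 and 1.34 against 1.66 and 2.05. The groups did not overlap in any of the 6 comparisons. A two-sided exact permutation test gave p = 0.1 for each comparison of 3 with 3 libraries and p = 0.333 for each of 2 with 2, in both cases the smallest p that the design allows. Since the groups did not overlap, leaving out a library could not turn the sign of the log2 change. Its size then ranged from -0.77 to -0.71 in KYSE180 siBRDT and from -0.92 to -0.43 in TE6 siBRDT. As a share of the summed RPKM of the 3 classical cadherins, CDH2 fell from a mean of 3.82% ± 0.049 (SD, n = 3) to 1.76% ± 0.10 (SD, n = 3) in KYSE180 siBRDT. This share was also lower in KYSE180 siTP63, at 1.08 and 1.17% against 2.03 and 1.77% in siCont. It overlapped between treated and control libraries in TE6 siBRDT and TE6 siTP63 and stayed at or under 0.0326% in KYSE150.

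**Figure D4:**
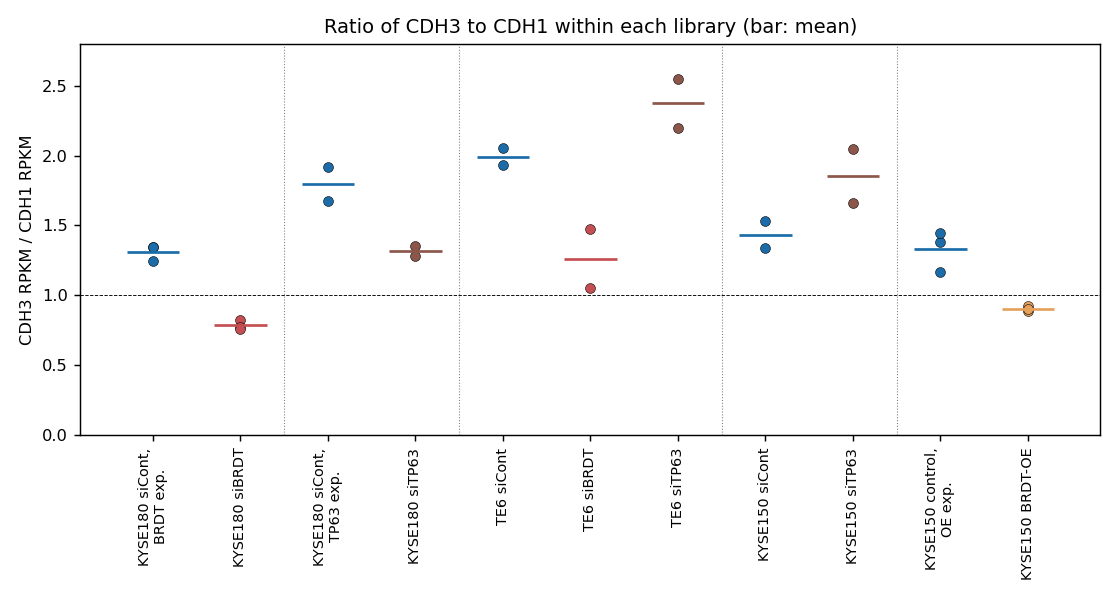
Ratio of CDH3 to CDH1 (RPKM over RPKM) in every library, with the group mean as a bar, a dashed line at equal levels and dotted lines between the 5 tables. The siBRDT groups lie under their controls in KYSE180 and TE6, siTP63 lies lower in KYSE180 and higher in TE6 and KYSE150, and all BRDT-OE libraries lie under 1.

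Other genes of the same pathways were counted in 5 lists, which were also chosen with earlier results of these data known. The counts below stand beside 30.3% of all genes called in KYSE180 siBRDT, 33.7% in TE6 siBRDT, 49.3% in KYSE180 siTP63, 38.9% in TE6 siTP63, 0% in KYSE150 siTP63 and 26.5% in BRDT-OE, and a list whose share is near these is not set apart by its count. The median log2 fold change of all genes lay between -0.039 and 0.017 in the 6 comparisons.

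Among 20 mesenchymal genes of matrix, cytoskeleton and invasion, 12 of 18 tested were called lower and 1 higher in KYSE180 siBRDT, that is 13 of 18 beside 30.3% of all genes, with a median log2 fold change of -0.95 against -0.0052 over all genes. The matrix glycoprotein gene TNC (1218 ± 165 against 243 ± 24.3, mean ± SD of 3 libraries, adjusted p = 2.5e-10 for a log2 fold change of -2.32) and the gelatinase gene MMP2 (764 ± 9.48 to 185 ± 22.0, log2 fold change -2.05) had the largest changes among those named by the rule. In TE6 siBRDT 3 of 15 were lower and 1 higher, in all 4 beside 33.7% of all genes, a share no larger than the background, with a median of -0.27. MMP2 (-0.94) and the fibronectin receptor subunit gene ITGA5 (-0.91) were among those lower. ITGA5 was also lower in KYSE180 siBRDT (-1.20) but higher in KYSE180 siTP63 (0.94), and COL5A1 likewise measured -1.24 and 1.36. After siTP63, 4 of 15 were lower and 3 higher in KYSE180 (TNC -1.70, median of the list -0.075), 7 of 15 lower and 2 higher in TE6 (MMP2 -1.53, LOX -1.21, median -0.48), and none of 12 was called by limma in KYSE150, where 1 had an unadjusted p under 0.05. In BRDT-OE 4 of 13 were higher and 3 lower, with TNC at 1.07, COL1A1 at -0.90 and a median of 0.0080.

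Among 14 partners of cadherins at the adherens junction, 12 were tested in KYSE180 and TE6. After siBRDT, 3 were called lower in KYSE180, beside 30.3% of all genes and with a list median of -0.36, led by the alpha-catenin gene CTNNA1 (674 ± 17.5 to 404 ± 28.2, SD, n = 3, log2 fold change -0.74) and the afadin gene, listed as MLLT4 (-0.65). In TE6 siBRDT 6 were lower, beside 33.7% of all genes (median -0.36), with the vinculin gene VCL at -1.21 and MLLT4 at -0.77. VCL, also lower in KYSE180 siBRDT (-0.62), was higher in KYSE180 siTP63 (1.47) and in BRDT-OE (0.52). In KYSE180 siTP63 4 partners were higher and 1 lower, beside 49.3% of all genes (median 0.30). MLLT4 was higher there (0.53) and lower in TE6 siTP63 (-0.75). The nectin gene NECTIN4, listed as PVRL4, rose after siTP63 in KYSE180 (1.97) and TE6 (1.47) and fell in BRDT-OE (-1.25). In TE6 siTP63 2 partners were higher and 4 lower, beside 38.9% of all genes (median -0.19), with NECTIN1 (PVRL1) at -1.45. In KYSE150 none of 10 was called by limma after siTP63, with 2 at an unadjusted p under 0.05, and in BRDT-OE 1 of 11 was higher and 2 lower, beside 26.5% of all genes (median -0.079).

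Of 12 genes that maintain epithelial identity, the host gene of the miR-205 precursor, MIR205HG, fell in 4 comparisons. Its log2 fold change was -1.42 in KYSE180 siBRDT (2381 ± 46.2 to 892 ± 41.1, SD, n = 3), -1.56 in KYSE180 siTP63, -1.23 in TE6 siTP63 and -1.71 in BRDT-OE. It was not called in TE6 siBRDT (0.15) or KYSE150 siTP63 (-2.69, adjusted p = 0.11). Transcription factors of this list moved otherwise. The grainyhead gene GRHL3 was called higher in KYSE180 siBRDT (1.57), KYSE180 siTP63 (0.97) and TE6 siTP63 (0.61) but lower in TE6 siBRDT (-0.74, adjusted p = 0.0043). GRHL1 was called higher after siTP63 in KYSE180 (2.09) and TE6 (0.52) and lower in TE6 siBRDT (-0.65, adjusted p = 0.0039). OVOL1 was higher in TE6 siBRDT (0.81) and TE6 siTP63 (0.79) and lower in BRDT-OE (-0.57). OVOL2 was higher in KYSE180 siBRDT (0.75), TE6 siBRDT (0.54) and TE6 siTP63 (1.22). The splicing factor gene ESRP2 was lower in TE6 siBRDT (-0.75) and higher after siTP63 in TE6 (0.75) and KYSE180 (0.52). ELF3 was lower in BRDT-OE (-2.04) and higher in KYSE180 siBRDT (0.64) and KYSE180 siTP63 (1.22). Counts of called genes, higher and lower, were 3 and 1 of 11 in KYSE180 siBRDT (beside 30.3% of all genes), 2 and 4 of 11 in TE6 siBRDT (33.7%), 6 and 1 of 12 in KYSE180 siTP63 (49.3%), 5 and 1 of 11 in TE6 siTP63 (38.9%) and 0 and 4 of 11 in BRDT-OE (26.5%). The list's medians in these 5 comparisons were -0.0014, -0.17, 0.50, 0.48 and -0.33. For KYSE150 siTP63 the count by limma was 0 of 10, and 4 of these had an unadjusted p under 0.05.

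Among 10 further transcription factors of the transition, at most 7 were tested in a comparison. TCF4, an E-protein gene that encodes partners of TWIST1, was called lower in KYSE180 siBRDT (-0.58), TE6 siBRDT (-1.12), KYSE180 siTP63 (-0.61) and TE6 siTP63 (-1.64). TWIST2, the paralog of TWIST1, fell from 330 ± 11.9 to 156 ± 13.2 (SD, n = 2) in KYSE180 siTP63, by 1.08 on the log2 scale. The list's counts, higher and lower, were 1 and 1 of 7, 2 and 1 of 7, 0 and 2 of 6, and 1 and 1 of 7 in these 4 comparisons, then 0 of 2 in KYSE150 siTP63 (limma, 1 at an unadjusted p under 0.05) and 0 and 1 of 3 in BRDT-OE, all on too few genes to set beside the shares over all genes.

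Of 19 other cadherin genes, 2 to 7 were abundant enough to test. CDH11, a mesenchymal cadherin gene, was the one with the largest fold change, from 10.6 ± 0.53 to 112 ± 16.0 (SD, n = 2) in KYSE180 siTP63 (log2 fold change 3.27, SE 0.30, adjusted p = 1.4e-09). It was called lower in KYSE180 siBRDT (-0.98). In KYSE180 siTP63 CDH24 fell by 1.12 on the log2 scale, and 2 of 6 were higher and 1 lower. In TE6 siTP63 CDH26 and CDH24 fell, by 1.19 and 0.58, and CDH6 rose by 1.74, in all 3 of 7. In TE6 siBRDT 2 of 7 were lower (CDH12 -0.89, CDH10 -0.69) and in KYSE180 siBRDT 2 of 6 (CDH26 -1.57 and CDH11). None of 2 was called by limma in either KYSE150 experiment, with 2 at an unadjusted p under 0.05 after siTP63 and 0 in BRDT-OE.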

How the data were processed

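RNA of 26 ESCC cell line samples was made into libraries with the TruSeq RNA V2 kit and sequenced. The study speaks of mRNA-seq for the BRDT knockdown in KYSE180. Per the submitters' processing notes and the study's methods, the authors aligned reads to hg38 with STAR 2.6.0, counted genes with HTSeq 0.11.2 and normalised with DESeq2 1.24.0. The gene annotation and the strand setting are not given in the sources used here. In the 5 deposited tables each value is a signal that the authors made by dividing a gene's count by the size factor of its library. All values (100%) were whole multiples of 1 read within a tolerance of 1e-06, so reads were recovered, at 7582089 to 19372441 per library. Intervals and the limit of 3 reads behind a count of 0 cover counting error only, since reads carried no molecular identifiers. All table columns were mapped to a sample by name.

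The main test, assumed when the design was written, was limma 3.58.1 (R 4.3.3; lmFit and eBayes with trend = TRUE, two-sided, Benjamini-Hochberg over all genes tested) on log2(value + 1), for genes with a mean value of at least 10. Calls needed an adjusted p under 0.05 together with a log2 fold change that reached 0.5 in either direction. There was 1 fit per table, which for TE6 held all 3 groups. Differences between lines were limma contrasts of 2 fold changes. Alternatives were a pseudocount of 0.1, no filter, edgeR 4.0.16 or DESeq2 1.42.0 on recovered reads, a block for the replicate number, rescaling to equal upper quartiles, a spline correction (4 degrees of freedom) of every library for GC content and transcript length (GENCODE 44, found for 92.7% of symbols), fits of 2 TE6 groups only and the omission of each library. A crossed pairing and the CDH3 to CDH1 ratio with its omission of libraries were added after the data were seen. Fits were tested on simulated data.

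The 10 genes are named in each comparison, and of each companion list up to 2 called genes per comparison with the largest fold change and a mean value of at least 50. CDH5, and the further values of companion genes beyond this rule, were singled out after the data were seen. Members and lists were chosen with earlier results of these data known. RPKM used the longest GENCODE transcript. siRNA sequences came from the study's supplement. Sequences of promoters and proteins were not used here. Python 3.11.15 and matplotlib 3.10.9 made the figures.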

Additional observations from a re-analysis of the deposited data

Results flagged for a closer look

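The 9 differences between cell lines that passed the test of the difference itself (limma contrast of log2 fold changes, Benjamini-Hochberg adjusted p under 0.05) are listed here as values. After siBRDT the log2 fold change in KYSE180 minus that in TE6 was -0.592 for SNAI2 (95% interval -0.894 to -0.289), -1.71 for TWIST1 (-2.39 to -1.02) and -2.19 for FN1 (-3.06 to -1.32). In KYSE180 all 3 genes were lower in 3 of 3 siBRDT libraries than in any control. In TE6 SNAI2 and TWIST1 were also lower in every siBRDT library than in any control. Their log2 fold changes there were -0.08 and -0.14, without a call, and FN1 overlapped between the groups. Groups without overlap were found for 62.8% of all genes in KYSE180 siBRDT and for 71.9% in TE6 siBRDT, so this separation alone is common.

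After siTP63, KYSE180 minus TE6 was 1.06 for CDH1 (0.754 to 1.36), 0.362 for CDH3 (0.0707 to 0.654) and 0.722 for SNAI2 (0.135 to 1.31). CDH1 was higher in 2 of 2 siTP63 libraries of KYSE180, and its groups overlapped in TE6. SNAI2 was lower in 2 of 2 siTP63 libraries in both lines, so that the difference is one of size. Groups did not overlap for 80.2% of all genes in KYSE180 siTP63 and for 80.5% in TE6 siTP63.

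For FN1 after siTP63, KYSE180 minus KYSE150 was 2.21 (1.43 to 3.001) and TE6 minus KYSE150 was 2.68 (1.94 to 3.42). FN1 was higher in 2 of 2 siTP63 libraries of KYSE180 and TE6 and lower in 2 of 2 of KYSE150. In KYSE150 siTP63 the groups did not overlap for 48.9% of all genes, and FN1 was not called. SNAI2, TE6 minus KYSE150, was -1.54 (-2.15 to -0.93). The line and the experiment in which it was treated cannot be told apart.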

How the results depend on the processing

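The 6 calls in KYSE180 siBRDT kept their direction and side of the threshold in every alternative. The number of the 10 genes called changed by over 1.5 times as follows, from the values in the report. With no filter on low values it was 3 in KYSE180 siTP63, and the differing genes were 1 in siTP63 of KYSE180 minus TE6 and 0 in siTP63 of KYSE180 minus KYSE150. With DESeq2 it was 3 in KYSE180 siTP63, 1 in KYSE150 siTP63 and 2 in KYSE180 minus KYSE150. With edgeR it was 2 in BRDT-OE, and with rescaling 3. With the length and GC trend removed it was 2 in TE6 siBRDT (CDH3 and TWIST1), 3 in KYSE180 siTP63, 2 in KYSE150 siTP63 and 2 in KYSE180 minus KYSE150. The cause of these changes was not tested.

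Leaving out 1 library gave 6 to 6 calls in KYSE180 siBRDT, 1 to 1 in TE6 siBRDT, 3 to 5 in KYSE180 siTP63, 2 to 2 in TE6 siTP63, 0 to 1 in KYSE150 siTP63 and 1 to 2 in BRDT-OE. The differing genes were 3 to 5 for siBRDT and, for siTP63, 1 to 3 in KYSE180 minus TE6, 0 to 2 in KYSE180 minus KYSE150 and 0 to 3 in TE6 minus KYSE150. The steady count in TE6 siBRDT did not always stand for the same gene. Without siBRDT replicate 1 the log2 fold change of CDH3 was -0.44, under the limit, and CDH2, at -1.33, took its place. With 1 library left in a group, that library is assumed to vary like the others.

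Replicate numbers did not pair the libraries: correlations of same-numbered deviations were 0.0047 to 0.18 in KYSE180 siBRDT, 0.015 to 0.098 in BRDT-OE, -0.084 and 0.028 in TE6 and 0.047 in KYSE180 siTP63. With the replicate number as a block the differing genes were 0 in KYSE180 minus KYSE150 and 0 in TE6 minus KYSE150, and no other count of called genes changed. In KYSE150 siTP63 the correlation was -0.70, and the crossed pairing as a block, chosen after seeing the data, called 3 of the 6 genes and 3400 of 12335.

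Signs turned only for genes that were not called: VIM in TE6 siBRDT (0.0297 rescaled, 0.00907 with DESeq2), SNAI1 in TE6 siBRDT (-0.226), CDH2 in KYSE180 siTP63 (-0.115), VIM and TWIST1 in TE6 siTP63 (-0.0393 and -0.308), each with the trend removed, and ZEB1 in BRDT-OE (-0.0496 with edgeR, -0.0133 with DESeq2, -0.0156 with the trend removed). Leaving out 1 library gave ranges across 0 for CDH1 (-0.0406 to 0.0435), VIM (-0.159 to 0.147), SNAI1 (-0.0442 to 0.517) and FN1 (-0.296 to 0.528) in TE6 siBRDT, CDH2 in KYSE180 siTP63 (-0.0869 to 0.195), CDH1 (-0.0307 to 0.0920), VIM (-0.0880 to 0.219), SNAI1 (-0.349 to 0.212) and TWIST1 (-0.0738 to 0.124) in TE6 siTP63, CDH1 in KYSE150 siTP63 (-0.405 to 0.167) and ZEB1 in BRDT-OE (-0.214 to 0.403). Depth limits CDH2 and SNAI1 in KYSE150 and ZEB1 and ZEB2 in all 3 lines.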

Other observations

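The siCont sets of KYSE180, which bear the same cell line label in the BRDT and the TP63 experiment, differed in most of the 10 genes. In the BRDT experiment CDH1 measured 67.8 to 74.1 RPKM, CDH2 6.35 to 6.57 and FN1 0.893 to 0.983, and in the TP63 experiment 24.7 to 26.6, 1.28 to 1.49 and 0.0991 to 0.128. TP63 itself measured 171 to 191 RPKM in the one and 30.1 to 37.1 in the other. The ratio of CDH3 to CDH1, which does not depend on scaling, was 1.31 ± 0.056 (SD, n = 3) and 1.80 ± 0.17 (SD, n = 2). RPKM does not use the size factors, although the sets were normalised separately. The difference between the sets was not tested.

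FN1 in KYSE150 was lower in both siTP63 libraries and higher in all 3 BRDT-OE libraries than in the controls of the respective experiment. TWIST1 was lower than the controls in both experiments. Only the rise of FN1 in BRDT-OE was called, and no gene was called in KYSE150 siTP63. The groups did not overlap for 48.9% of all genes in KYSE150 siTP63 and for 60.2% in BRDT-OE.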
